A study of Saccharomyces cerevisiae with 3 samples.

Results

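The genes of the general transcription factors, of TFIID and of the Mediator complex of Saccharomyces cerevisiae were followed in a pooled library under selection by 3 drugs. The 56 genes were listed by complex, and 55 of them had a probe named by the platform annotation, out of 5325 named genes on the array. TAF2 had no named probe and was not analysed here. The samples were genomic DNA of a variomics library pool of essential genes, in which each strain carries sequence variants of 1 gene and short DNA tags that mark it. On each of 3 two-colour tag arrays, DNA of cells selected with cycloheximide, rapamycin or tunicamycin was labelled with Cy5 and untreated DNA of the same kind of pool with Cy3. There was 1 array for each drug and no replicate, so no p-value was computed. The untreated DNA may be shared between the arrays, and the drugs are therefore set side by side without a test. Cells had been sporulated before selection. The sample descriptions hold 30 ng (cycloheximide), 20 ng (rapamycin) and 3 "vg" (tunicamycin), and the word single stands in that of rapamycin, none of which the labels explain.

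Transcription of protein-coding genes by RNA polymerase II starts when TBP, the product of SPT15, binds promoter DNA, most often as part of TFIID together with the TAF proteins. TFIIA and TFIIB join TBP, TFIIF comes with the polymerase, TFIIE recruits TFIIH, and TFIIH opens the DNA and phosphorylates the polymerase tail. Mediator carries signals from activators to the polymerase through a head, a middle and a tail, to which a kinase module binds reversibly. In yeast nearly all of the general factors and the core of Mediator are needed for growth, while the tail and the kinase module are not. Cycloheximide blocks translation elongation, rapamycin inhibits the TOR kinase, and tunicamycin stops N-glycosylation of proteins at its start.

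All values are log2 ratios minus the median of their array. They were read as Cy5 over Cy3, selected over untreated. The labelled dyes make that direction likely, but the deposited table does not state it. A negative value then stands for a strain that was rarer after selection. A gene value is the mean of the measured probes, the SD is that between probes of 1 array, and n is the number of measured probes, so the SD does not hold the spread between cultures. The spread unit, the scaled median absolute deviation of all gene values, was 0.924 (cycloheximide), 1.06 (rapamycin) and 0.914 (tunicamycin), the order kept wherever 3 values follow each other without drug names. The word depleted is used of a gene value 3 or more units below 0 (limits of -2.77, -3.17 and -2.74) that rests on 2 or more measured probes, each of them 2 or more units below 0 (limits of -1.85, -2.11 and -1.83), and the word enriched of the mirror case. Of all genes that had the probes for such a call, 15.2%, 6.45% and 13.6% were depleted and 0.0485%, 0.0747% and 0.12% enriched. Signals of the separate channels were not analysed here, so the brightness behind a ratio is unknown.

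The genes divided by whether yeast needs them to live. From textbook knowledge of gene deletions 40 of the 56 genes were classed essential and 15 non-essential, and ROX3, for which strains differ, was left without a class. Among essential genes that could be called, cycloheximide depleted 26 of 38 (68.4%), rapamycin 8 of 12 (66.7%) and tunicamycin 26 of 39 (66.7%), against the 15.2%, 6.45% and 13.6% of all genes. The medians of all essential genes with a measured probe were -3.71 (39 genes), -6.07 (31 genes) and -4.19 (39 genes), beside medians over all genes of -0.04, -0.21 and -0.09. Of the non-essential genes 0 of 11, 0 of 15 and 0 of 14 were depleted, and their medians were 0.06, -0.05 and 0.34. No gene of either class was enriched on any array. The library was made for essential genes, so non-essential genes may be absent from the pool, and a value near 0 does not show how their variants respond. The shares of all genes also take in genes that may be absent, and what this adds to the gap was not tested. Most of the essential genes had 2 probes, and of all genes with 2 probes 19.2%, 8.12% and 17.2% were depleted. Among other essential genes of RNA polymerase II transcription, 52.6%, 22.2% and 44.4% were depleted.

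**Figure D1:**
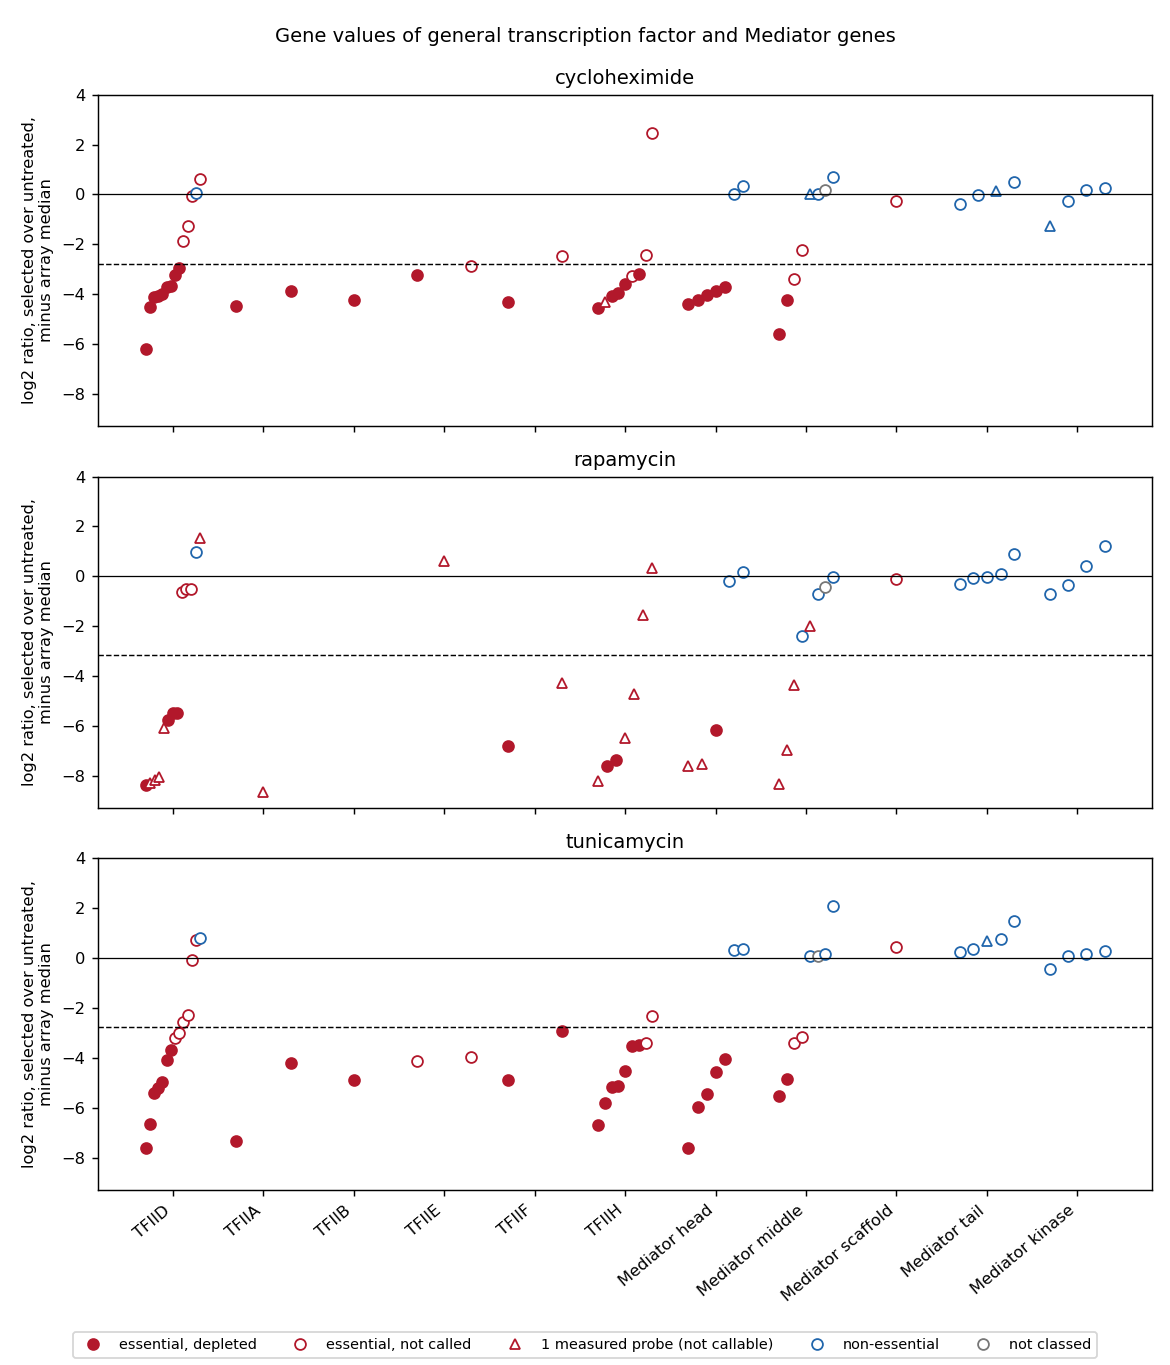
Gene values (log2 ratio minus array median, vertical axis) of the members of each complex on the 3 arrays. Red marks essential, blue non-essential and grey unclassed genes, filled circles are depleted genes, open circles genes with 2 or more measured probes that were not called, triangles of any colour genes with 1 measured probe, and the dashed line is the gene limit of -2.77, -3.17 or -2.74. The blue symbols of tail and kinase genes sit around 0, while most red symbols lie below the dashed line.

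TFIID, the complex that recognises core promoters, held depleted genes on every array. They were 9 of the 14 that could be called with cycloheximide, 4 of 8 with rapamycin and 7 of 14 with tunicamycin. The shares of all genes were 15.2%, 6.45% and 13.6%. The members of TFIID ranged from -6.20 to 0.63 under cycloheximide, from -8.37 to 1.54 under rapamycin and from -7.63 to 0.83 under tunicamycin. SPT15 (YER148W), which encodes TBP, had probes at -3.23 and -4.89 under cycloheximide, at -8.05 and -7.22 under tunicamycin, and 1 measured probe at -8.16 under rapamycin. Its tunicamycin value of -7.63 ± 0.59 (n = 2) was the lowest of TFIID on that array and the 8th lowest of the 4169 genes with at least 2 measured probes. All 5 measured probe values of SPT15 were past the probe limit.

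The 5 TAFs that TFIID shares with SAGA, a coactivator complex that modifies histones, were TAF5, TAF6, TAF9, TAF10 and TAF12. Of these, 4 of 5 were depleted under cycloheximide and 4 of 5 under tunicamycin, with medians of -4.10 and -4.06. On these arrays 15.2% and 13.6% of all genes were depleted. Of the TAFs found only in TFIID 4 of 7 and 2 of 7 were depleted on the same arrays, with medians of -2.95 and -2.58. These counts are small, and the difference between both groups was not tested. TAF6 (YGL112C), a histone-fold protein, had probes at -4.92 and -7.48 under cycloheximide and at -4.90 and -3.22 under tunicamycin, and both of its probes were empty under rapamycin. Its cycloheximide value was the lowest of all 4121 genes with at least 2 measured probes on that array. TAF9 (YMR236W), the histone-fold partner of TAF6, was depleted on all 3 arrays, with -4.10 ± 0.91, -8.37 ± 0.31 and -5.19 ± 2.07 (n = 2 each). The rapamycin probes of TAF9 stood at -8.59 and -8.16, the lowest value of TFIID there among genes with 2 measured probes. TAF12 (YDR145W), which pairs with TAF4 in TFIID, was also depleted on each array, with -3.67 ± 0.75, -5.76 ± 2.61 and -3.67 ± 2.25 (n = 2 each). TAF5 (YBR198C), a scaffold protein with WD40 repeats, had -4.51 ± 0.94 under cycloheximide and -5.41 ± 0.08 under tunicamycin (n = 2 each), and its 1 measured rapamycin probe stood at -8.04.

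Among the TAFs of TFIID alone, TAF3 (YPL011C), a histone-fold partner of TAF10, had probes at -3.68 and -3.74 under cycloheximide and at -6.01 and -7.25 under tunicamycin, with 1 rapamycin probe at -8.28. TAF8 (YML114C), the other partner of TAF10, was depleted by cycloheximide, at -3.23 ± 1.60, and by rapamycin, at -5.50 ± 2.95 (n = 2 each). Its tunicamycin value of -2.98 ± 3.10 (n = 2) failed the rule because the probes stood at -0.79 and -5.18. TAF1 (YGR274C) lay nearest to the limit of the called genes under cycloheximide, at -2.95 ± 1.45 (n = 2). It was depleted under rapamycin at -5.50 ± 3.79 and not called under tunicamycin at -2.29 ± 1.59 (n = 2 each). TAF13 (YML098W) and TAF11 (YML015C) form a histone-fold pair, and their values lay apart. TAF13 was depleted under cycloheximide at -4.01 ± 3.01 and under tunicamycin at -4.96 ± 2.57 (n = 2 each) and had 1 rapamycin probe at -6.07. TAF11 had 0.63 ± 0.19, -0.53 ± 1.20 and 0.74 ± 2.18 (n = 3 each) under cycloheximide, rapamycin and tunicamycin.

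TAF4 (YMR005W), a histone-fold subunit that pairs with TAF12, was named by 4 probes, which by their numbers form a pair of pairs. Its gene values of -1.86 ± 3.11 (n = 3), -0.61 ± 3.35 (n = 3) and -2.58 ± 2.57 (n = 4) were not called on any array. The second pair stood at -1.85 and -4.97 under cycloheximide and at -2.62 and -6.12 under tunicamycin, with 1 measured probe at -4.49 under rapamycin. The first pair stood at -1.45 and -0.13 under tunicamycin and at 1.32 on both probes under rapamycin, with 1 measured probe at 1.25 under cycloheximide. Of the 5 measured values of the second pair 4 were past the probe limit and the fifth, -1.85 under cycloheximide, missed it narrowly, while 0 of the 5 of the first pair were past it. The gene value averages these unlike pairs. TAF14 (YPL129W), a non-essential chromatin reader shared by several complexes, had 0.08 ± 0.84 (n = 8), 0.96 ± 0.96 (n = 12) and 0.83 ± 1.44 (n = 8). All 3 values of TAF14 lay within 2 spread units of 0.

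TFIIA, TFIIB, TFIIE, TFIIF and TFIIH together held 10 depleted genes of 15 with cycloheximide, 3 of 3 with rapamycin and 12 of 16 with tunicamycin. The shares of all genes were 15.2%, 6.45% and 13.6%. Medians were -3.73, -6.50 and -4.36 over 16, 11 and 16 measured genes. Under rapamycin 8 of the 16 genes had 1 measured probe and could not be called, 5 of them past 3 units. TOA1 (YOR194C) and TOA2 (YKL058W), the large and small subunits of TFIIA, were both depleted under cycloheximide and tunicamycin. TOA2 had -4.46 ± 0.53 and -7.33 ± 1.53, and TOA1 -3.87 ± 1.41 and -4.19 ± 0.52 (n = 2 each). Under rapamycin both probes of TOA2 were empty, and the 1 measured probe of TOA1 stood at -8.65, the lowest value of any of the 56 genes on that array. The lowest value of any spot there was -8.67, so TOA1 lay near the lower end of what that array held. SUA7 (YPR086W), which encodes TFIIB, the factor that helps set the transcription start site, had probes at -3.98 and -4.50 under cycloheximide and at -4.69 and -5.12 under tunicamycin, and none measured under rapamycin. Its 4 measured probes lay close together and all past the limit.

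In TFIIE, which brings TFIIH to the polymerase, 1 of 2 genes was depleted under cycloheximide and 0 of 2 under tunicamycin, although both gene values lay past 3 units on both arrays. TFA2 (YKR062W), the small subunit, had probes at -3.54 and -2.92 under cycloheximide and at -7.60 and -0.64 under tunicamycin. TFA1 (YKL028W), the large subunit, had probes at -0.85 and -4.86 under cycloheximide and at 0.87 and -8.83 under tunicamycin. In both genes the tunicamycin call failed on a probe within 2 units of 0. TFG1 (YGR186W), the large subunit of TFIIF, was depleted on all 3 arrays, at -4.32 ± 1.60, -6.83 ± 0.87 and -2.93 ± 0.31 (n = 2 each). TFG2 (YGR005C), the other TFIIF subunit, was depleted under tunicamycin at -4.88 ± 3.32 (n = 2), had 1 rapamycin probe at -4.28, and missed the gene limit under cycloheximide at -2.45 ± 0.45 (n = 2).

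TFIIH, which opens promoter DNA and holds a kinase of the polymerase tail, had 5 depleted genes of 8 with cycloheximide, 2 of 2 with rapamycin and 7 of 9 with tunicamycin. The shares of all genes were 15.2%, 6.45% and 13.6%. Under rapamycin 5 TFIIH genes had 1 measured probe and could not be called, 3 of them past 3 units. RAD3 (YER171W), a helicase that also acts in nucleotide excision repair, had probes at -2.94 and -4.94 under cycloheximide and at -6.53 and -6.88 under tunicamycin. The core subunits SSL1 (YLR005W) and TFB4 (YPR056W) were depleted under the same pair of drugs, SSL1 at -4.06 ± 1.24 and -5.82 ± 2.62 and TFB4 at -3.58 ± 0.83 and -5.14 ± 1.31 (n = 2 each). TFB1 (YDR311W), a core subunit, was depleted under rapamycin at -7.59 ± 0.98 and tunicamycin at -5.19 ± 1.06 (n = 2 each), while its cycloheximide value of -2.44 ± 1.41 (n = 2) missed the gene limit. Ranges were taken only over arrays with at least 2 measured probes of the gene, so values from 1 probe were left out. By that measure the range of TFB1, 5.15, was the second widest among the genes with at least 2 such arrays.

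TFB2 (YPL122C), a core subunit of TFIIH, had the widest range by the same measure, 6.98, which leaves out its rapamycin value. Its probes stood at 3.61 and 1.32 under cycloheximide and at -4.58 and -4.47 under tunicamycin, and its 1 measured rapamycin probe stood at -6.50. The gene value was thus high on 1 array and low on the others. Under cycloheximide it was 2.46 ± 1.62 (n = 2), the 9th highest of 4121 genes and 5.51-fold above the array median, but not called enriched because the value missed 3 units and the second probe 2 units. Under tunicamycin it was depleted at -4.52 ± 0.08 (n = 2). The next highest essential gene under cycloheximide was TAF11 at 0.63. With 1 array per drug the difference between drugs was not tested.

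The kinase module of TFIIH consists of the kinase KIN28 (YDL108W), its cyclin CCL1 (YPR025C) and the assembly factor TFB3 (YDR460W). TFB3 was depleted on all 3 arrays, at -4.56 ± 1.68, -7.38 ± 1.20 and -3.53 ± 0.41 (n = 2 each). CCL1 was depleted under cycloheximide at -3.21 ± 0.60 and under tunicamycin at -3.50 ± 1.64 (n = 2 each), and both of its rapamycin probes were empty. KIN28 was not called on any array, with 1 measured probe at -4.32 under cycloheximide, 1 at -1.54 under rapamycin, and probes at 0.87 and -5.48 under tunicamycin.

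**Figure D2:**
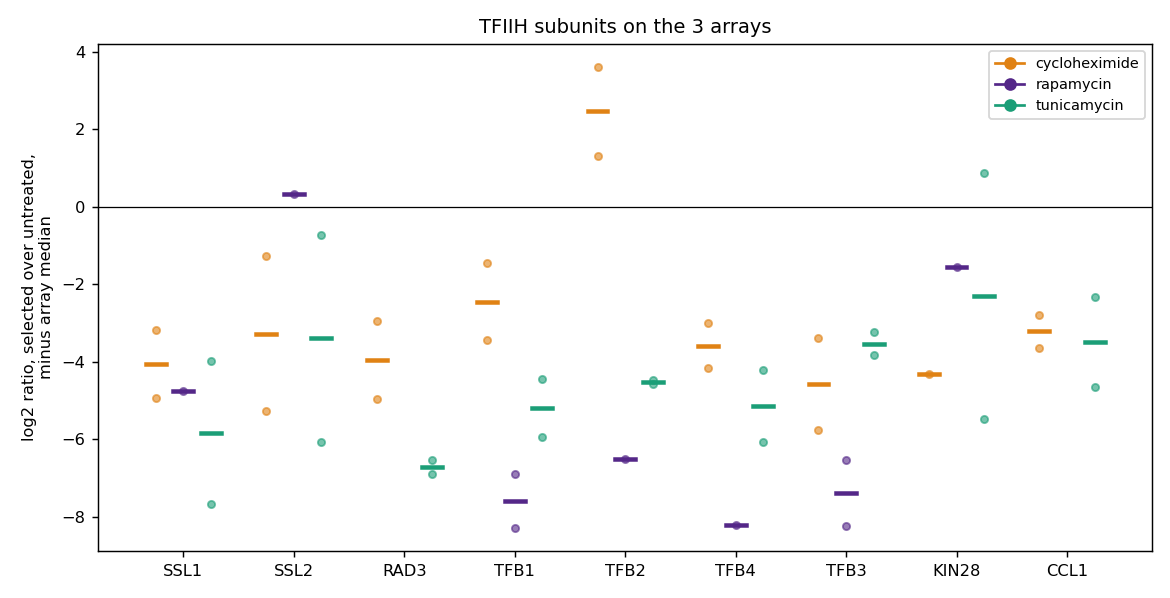
Probe values (points) and gene values (short horizontal lines, the mean of the measured probes) of the 9 TFIIH genes on the 3 arrays, as log2 ratio minus array median. TFB2 at 2.46 is the highest gene value, and the gene lies above 0 under cycloheximide and below 0 under rapamycin and tunicamycin.

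In Mediator, cycloheximide depleted 7 of 21 genes (33.3%), rapamycin 1 of 17 (5.88%) and tunicamycin 7 of 24 (29.2%), against 15.2%, 6.45% and 13.6% of all genes. The rapamycin share was thus no higher than that of all genes, but only 2 of the 10 essential Mediator genes could be called there. By the gene value alone, 6 of 23 measured Mediator genes (26.1%) lay past 3 units under rapamycin, against 13.5% of all measured genes. All of the depleted Mediator genes were essential genes of the head and middle. Among the essential Mediator genes the counts were 7 of 10, 1 of 2 and 7 of 10, with medians of -3.95, -6.56 and -4.71. Among the 14 non-essential ones 0 of 10, 0 of 14 and 0 of 13 were depleted, with medians of 0.04, -0.07 and 0.32.

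All 5 essential genes of the head, the part that contacts the polymerase, were depleted under cycloheximide and under tunicamycin. Their values ran from -4.41 to -3.71 and from -7.59 to -4.04. Under rapamycin MED6 (YHR058C), a conserved head subunit, was depleted at -6.17 ± 0.54 (n = 2), and it had -3.71 ± 0.99 and -4.56 ± 1.83 (n = 2 each) under cycloheximide and tunicamycin. The other essential head genes could not be called under rapamycin, where SRB6 (YBR253W, Med22) had 1 measured probe at -7.62, MED8 (YBR193C) 1 at -7.54, and MED11 (YMR112C) and SRB4 (YER022W, Med17) none. SRB4, the central scaffold of the head, had -4.22 ± 1.44 and -5.43 ± 0.34 under cycloheximide and tunicamycin (n = 2 each). SRB6 had -4.04 ± 0.26 and -7.59 ± 0.48 (n = 2 each), the latter the 12th lowest of 4169 genes. MED11, which binds SRB6 in the head, had -4.41 ± 1.45 and -4.04 ± 0.30, and MED8 -3.86 ± 1.68 and -5.97 ± 0.09 (n = 2 each). The non-essential head genes SRB2 (YHR041C, Med20) and SRB5 (YGR104C, Med18), which form a movable jaw of the head, had values between -0.20 and 0.38 over the 3 arrays, each from at least 7 probes.

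The middle held 4 essential genes, of which 2 were depleted under cycloheximide and 2 under tunicamycin. NUT2 (YPR168W, Med10) had probes at -5.96 and -5.25 under cycloheximide, at -4.49 and -5.21 under tunicamycin, and 1 measured probe at -6.95 under rapamycin. Its cycloheximide value, -5.61 ± 0.50 (n = 2), was the lowest of Mediator on that array. MED4 (YOR174W), a core subunit of the middle, had -4.22 ± 1.09 under cycloheximide and -5.54 ± 0.77 under tunicamycin (n = 2 each) and 1 rapamycin probe at -4.36. MED7 (YOL135C) and SRB7 (YDR308C, Med21), which bind each other to form a hinge, were not called on any array. The non-essential SOH1 (YGL127C, Med31) had 0.72 ± 0.16, -0.05 ± 0.45 and 0.08 ± 1.12 (n = 2 each), and CSE2 (YNR010W, Med9) had 0.02 ± 0.58 (n = 11), -0.71 ± 1.44 (n = 11) and 0.16 ± 0.38 (n = 6). ROX3 (YBL093C, Med19), the unclassed gene, had 0.16 ± 0.90 (n = 12), -0.42 ± 1.24 (n = 12) and 0.11 ± 1.24 (n = 10).

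MED1 (YPR070W), a non-essential subunit of the middle, was the widest of its class. It had probes at -1.85 and -2.91 under rapamycin and at 3.46 and 0.71 under tunicamycin, and 1 measured probe at 0.00 under cycloheximide. Neither -2.38 ± 0.75 nor 2.09 ± 1.94 (n = 2 each) was called. The tunicamycin value was the 15th highest of 4169 genes, and its higher probe held, before centring, the log2 of 1 small whole number over another (each up to 10), which 70.3% of all tunicamycin spots in the range of such ratios also held.

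RGR1 (YLR071C, Med14), the essential scaffold that joins head, middle and tail, stood near the array median on every array. Whether the annotation names the tags of RGR1 and its neighbours correctly was not tested. Its probes were at -0.26 and -0.26 under cycloheximide, at -1.0 and 0.80 under rapamycin, and at 0.87 and 0.05 under tunicamycin. The 5 tail genes, whose products bind activators, ranged from -0.37 to 0.49, from -0.33 to 0.89 and from 0.23 to 1.51 on the 3 arrays. The widest of them was MED2 (YDL005C), at 1.51 ± 1.35 under tunicamycin and 0.11 ± 0.53 under rapamycin (n = 2 each), with no measured probe under cycloheximide. GAL11 (YOL051W, Med15), the main activator target in the tail, had -0.02 ± 0.78 (n = 11), -0.08 ± 0.96 (n = 12) and 0.76 ± 0.42 (n = 9). The 4 kinase module genes ranged from -1.26 to 0.24, from -0.71 to 1.20 and from -0.42 to 0.30. The kinase SSN3 (YPL042C), with its cyclin SSN8 (YNL025C), had -1.26 (n = 1), -0.37 ± 1.27 and -0.42 ± 0.41 (n = 2 each), and SSN8 had -0.26 ± 0.93 (n = 9), -0.71 ± 1.31 (n = 9) and 0.16 ± 0.66 (n = 8). SSN2 (YDR443C, Med13), which links the module to core Mediator, had 0.24 ± 0.12, 1.20 ± 0.18 and 0.08 ± 0.29 (n = 2 each). All tail and kinase values lay within 2 spread units of 0.

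**Figure D3:**
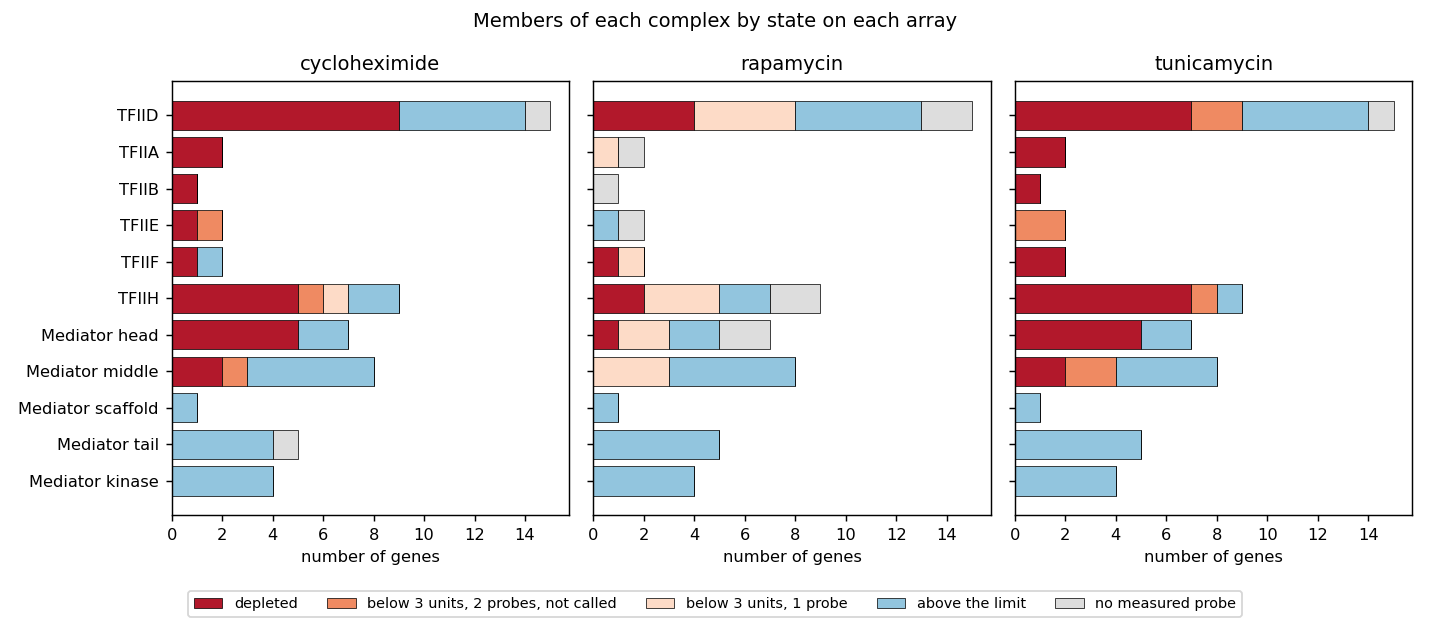
Number of genes (horizontal axis) of each complex by state on each array. Dark red bars are depleted genes, orange bars genes past 3 units with 2 measured probes that failed the probe limit, pale bars genes past 3 units with 1 measured probe, blue bars measured genes above the limit and grey bars genes without a measured probe. The head shows 5 depleted genes under cycloheximide and tunicamycin, and the scaffold, tail and kinase parts show 0.

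The number of probes went along with the class. Of the essential genes 37 had 2 probes and 2 had 4, while 9 non-essential genes and ROX3 had 12 and 6 non-essential genes had 2. Those 6 were MED1, MED2, PGD1, SOH1, SSN2 and SSN3, and none was called. Of all 781 genes with 12 probes 2, 5 and 1 had a value past the gene limit on the 3 arrays, and 2, 3 and 1 were depleted. In pairs, the probe numbers of all 4439 genes with 2 probes differed by 10971, and the 214 probes of the 55 genes all fell into such pairs.

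Of the 40 essential genes 5 were depleted on all 3 arrays (TAF9, TAF12, TFG1, TFB3 and MED6), 21 on 2, 3 on 1 and 11 on none. Only 12 of the 40 could be called under rapamycin, so most could not be depleted on all 3. By the gene value alone, whatever the number of probes, 17 lay past 3 units on all 3 arrays. How all genes divide by number of arrays was not counted. The 11 depleted on none were TAF2, TAF4, TAF7, TAF10, TAF11, TFA1, SSL2, KIN28, MED7, SRB7 and RGR1. They fell into different kinds. TAF2 had no probe, TAF4 had its pair of pairs, and in 6 genes 1 probe was past the probe limit on each array where it was measured while the other was past it on none. In 3 genes, TAF7, TAF11 and RGR1, no probe was past the limit on any array.

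The 6 genes with unlike probes were TAF10, TFA1, SSL2, KIN28, MED7 and SRB7. In TAF10 (YDR167W) the lower-numbered probe stood at 2.74, 1.54 and -1.45 under cycloheximide, rapamycin and tunicamycin, and the higher-numbered probe at -5.31 under cycloheximide and -4.99 under tunicamycin. In SSL2 (YIL143C), the translocase that melts promoter DNA, the lower-numbered probe stood at -1.26, 0.32 and -0.71 and the other at -5.27 under cycloheximide and -6.07 under tunicamycin. In SRB7 the lower-numbered probe stood at -1.66, -2.0 and 0.33 and the other at -5.14 and -6.64 under the same pair of drugs. In these genes, as in TFA1 and KIN28, the higher-numbered probe was the low one and was empty under rapamycin. MED7 ran the other way, with its lower-numbered probe at -3.76, -8.35 and -6.65 and the higher-numbered at -0.68 under cycloheximide and -0.13 under tunicamycin. Such a pattern was found in 147 of all 4439 genes with 2 probes (3.31%) and in 6 of the 37 essential members with 2 probes. Both probes were past the limit wherever measured in 24 of the 37, against 551 of the 4439 (12.4%). The split pattern needs a low probe, so it can arise only in genes with low values. Set beside the genes with both probes low, it was 6 to 24 in the members and 147 to 551 in all genes, so it does not set the members apart. For these 6 genes the mean of the probes describes neither probe.

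**Figure D4:**
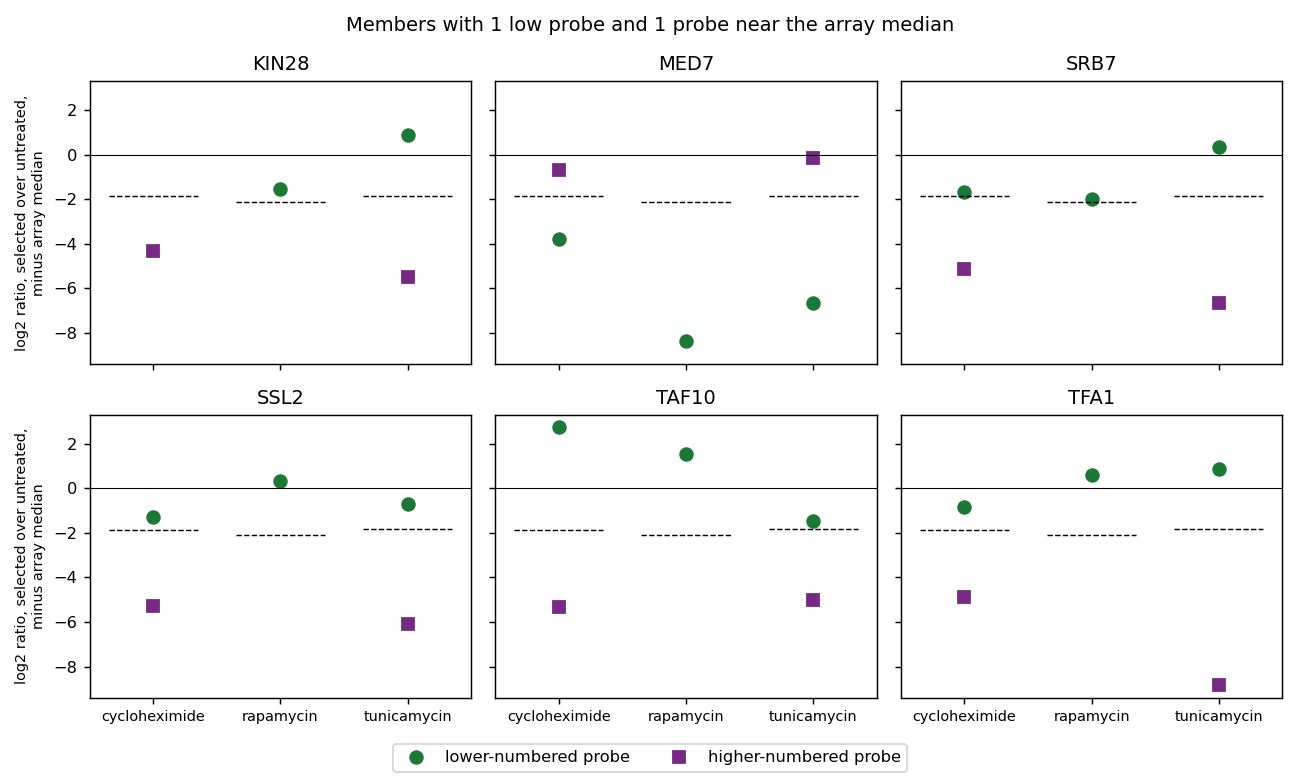
Values of the lower-numbered probe (green circles) and the higher-numbered probe (purple squares) of 6 essential genes on the 3 arrays, as log2 ratio minus array median, with the probe limit of each array as a dashed line. In every gene the same probe lies below the dashed line wherever it was measured and the other above it, and missing symbols are empty spots.

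TAF7 (YMR227C), a TFIID subunit that binds TAF1, had probes at 0.15 and -0.26 under cycloheximide, at -1.38 and 0.32 under rapamycin, and at 1.27 and -1.45 under tunicamycin. Its values of -0.06 ± 0.29, -0.53 ± 1.20 and -0.09 ± 1.92 (n = 2 each) lay among those of the non-essential genes, as did those of TAF11 and RGR1. Under cycloheximide all 7 measured spots of TAF7, TAF11 and RGR1 held such a small whole-number ratio (within 0.0006 on the log2 scale), as did 4 of 7 under rapamycin and 5 of 7 under tunicamycin. The shares of all spots in that range were 72.9%, 47.7% and 70.3%. Neither cycloheximide probe of TFB2 held one.

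Empty values went along with the class and the drug. Under rapamycin 37 of the 82 spots of essential genes (45.1%) were empty, against 3 (3.66%) under cycloheximide and 0 under tunicamycin. For the non-essential genes it was 5 of 120 (4.17%), 21 (17.5%) and 19 (15.8%), and for all named spots 12.7%, 14.0% and 12.7%. The 8 essential genes with no measured rapamycin probe were TAF6, TOA2, SUA7, TFA2, RAD3, CCL1, MED11 and SRB4. Their gene values ran from -6.20 to -3.21 under cycloheximide and from -7.33 to -3.50 under tunicamycin, so the rapamycin counts leave out genes that were low on the other arrays. A further 19 essential genes had 1 measured probe under rapamycin, of which 14 lay past 3 units but could not be called. Counted by the gene value alone, whatever the number of probes, 22 of 31 essential genes lay at least 3 units below 0 under rapamycin, 30 of 39 under cycloheximide and 33 of 39 under tunicamycin, against 13.5%, 13.6% and 14.4% of all measured genes.

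The probes of a pair differed by array. Under cycloheximide the higher-numbered probe was the lower of the pair in 31 of 36 essential genes with both measured, with a median difference (higher-numbered minus lower-numbered) of -1.71. It was so in 24 of the 26 depleted members and in 557 of 595 other depleted genes with 2 probes (93.6%). Under rapamycin it was 4 of 10 essential genes and under tunicamycin 22 of 37. An offset of this kind is part of the SD between probes printed for cycloheximide. Each probe was also taken alone. With the lower-numbered probe alone 9 of 51 members were depleted under cycloheximide, and with the higher-numbered alone 28 of 53, against 26 of 50 with both. The shares of all genes moved with these counts, at 3.69%, 14.0% and 15.2%. The spread unit, and with it the gene limit, was taken anew for each probe alone, so the limit of -2.77 was not held in either count. The lower-numbered probes of TAF9 (-3.453), MED11 (-3.385), SPT15 (-3.228) and SRB4 (-3.199) were past -2.77 but were not counted as depleted. The fall to 9 thus mixes the offset with a changed limit, and the part of the offset in the calls was not isolated.

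**Figure D5:**
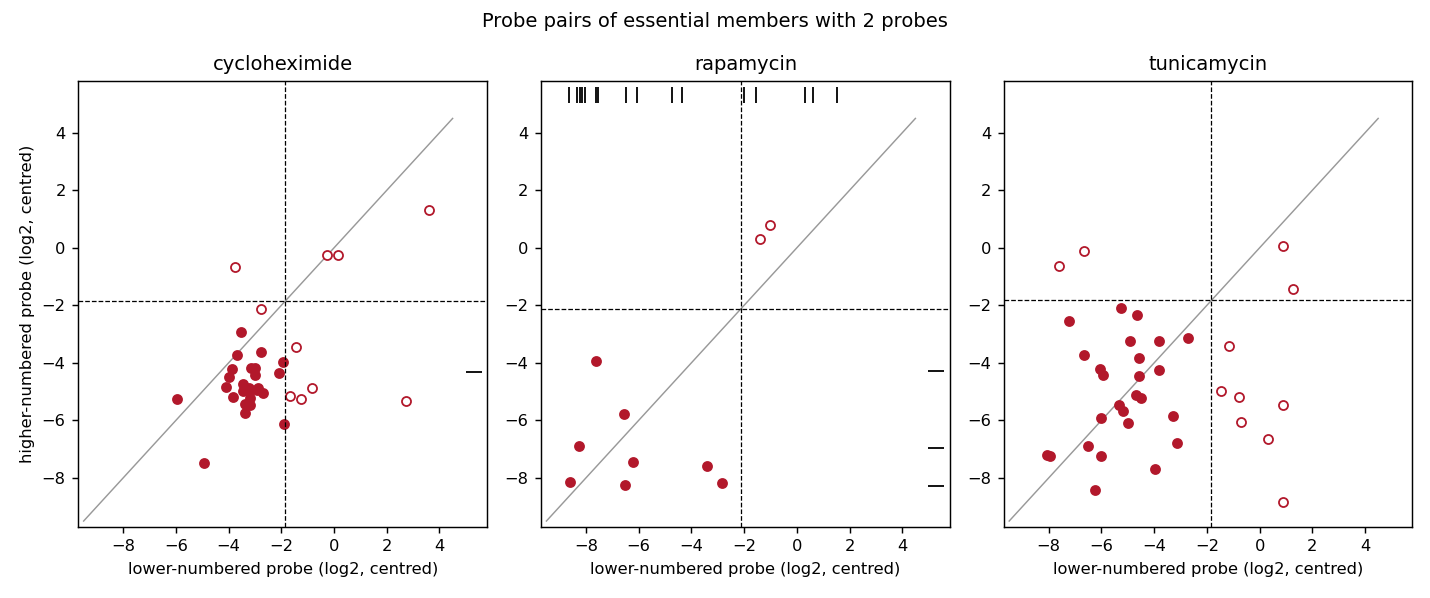
Lower-numbered probe (horizontal axis) against higher-numbered probe (vertical axis) of the essential genes with 2 probes, as log2 ratio minus array median, 1 panel per array, with the grey line of equality and the probe limits dashed. Filled circles are depleted genes, open circles genes not called, and ticks at the upper or right edge are genes with the other probe empty. Most cycloheximide circles lie below the line of equality, and the rapamycin panel has 10 circles with 16 ticks at its upper edge.

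Other genes of RNA polymerase II transcription were taken from a list by function. Of their essential members cycloheximide depleted 10 of 19, rapamycin 2 of 9 and tunicamycin 8 of 18, with medians of -2.71, -4.22 and -2.91, and of the non-essential members 0 of 15, 0 of 16 and 0 of 16. Among the 10 essential subunits of RNA polymerase II 5 of 10, 2 of 6 and 3 of 10 were depleted, and RPB11, which binds RPB3 in the polymerase, had -4.18 ± 1.07 and -6.86 ± 0.15 under cycloheximide and tunicamycin (n = 2 each). The TBP regulators BUR6 and NCB2, the subunits of the repressor NC2, were depleted on the same arrays, BUR6 at -3.33 ± 0.91 and -5.25 ± 1.19 and NCB2 at -4.21 ± 1.20 and -7.69 ± 0.56 (n = 2 each). Among the 7 essential elongation factors and phosphatases of the polymerase tail 3 of 7, 0 of 2 and 3 of 6 were depleted. The 12 measured non-essential SAGA genes ranged from -0.33 to 1.74, from -1.64 to 1.27 and from -1.21 to 1.03, beside medians of -4.10, -6.90 and -4.06 for the essential TAFs that SAGA shares with TFIID. Amino acid and adenine synthesis genes, which are not essential and served for comparison, had 0 depleted of 36, 40 and 30, with medians of 0.13, 0.00 and 0.09.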

How the data were processed

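The authors deposited 1 log2 ratio per spot and array for 22575 spots of 3 two-colour tag arrays. Base 2 was read from the values. How they were scanned, background-corrected and normalized was not given in the sources used here. Per the labels' protocols, PCR with a dye-linked universal primer labelled the tags. The value 16.61, on 739, 196 and 526 spots, was read as a code and left out with 3156, 2821 and 2951 empty spots. The platform annotation named 18794 probes with 1 gene, 0 with several and 3781 with none, and 5321 of 5325 genes matched the RefSeq table of assembly R64. Array medians of -0.74, -1.32 and -0.87 were subtracted. Calls were tested on simulated data. Both probes of a shifted gene were given the same large shift there, so smaller shifts and shifts that differ between probes were not tried. Calculations used Python 3.11.15 with pandas 2.3.3. The members, classes and lists were chosen with earlier results of these data known. All members could be named, with probe values for the lowest and highest of each complex, essential genes near 0 and those with the widest range. The number of arrays limits the precision.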

Additional observations from a re-analysis of the deposited data

Results flagged for a closer look

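The TFIIH gene TFB2 and the Mediator gene MED1 lay at least 2 spread units from 0 on opposite sides on different arrays, with every measured probe on the side of its gene value. TFB2 had 2.46 under cycloheximide (n = 2), -6.50 under rapamycin (n = 1) and -4.52 under tunicamycin (n = 2). MED1 had 2.09 under tunicamycin and -2.38 under rapamycin (n = 2 each). With 1 array per drug neither difference was tested, and only the tunicamycin value of TFB2 met the call rule.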

How the results depend on the processing

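No alternative left out a replicate, since each drug had 1 array. No paired analysis was possible because each drug had 1 array and the result comes from no test. Of 63 comparisons of the counts of depleted genes and of the class medians with an alternative, 57 stayed within 1.5 times the count or within the median SD between probes. That SD was wide, at 1.32, 1.20 and 1.53 for essential and 0.78, 0.96 and 0.79 for non-essential genes. A move of the essential cycloheximide median from -3.71 to -4.66 with quantile normalization lay within it. The exceptions follow. The count under cycloheximide was 9 of 51 with the lower-numbered probe alone, of which 8 were among the 26. The share of all genes fell from 15.2% to 3.69%. The gene limit of -2.77 was not held in that setting, so the count and the share also carry a changed limit. The spread unit was taken anew in every alternative, so the limits behind the other counts, those under rapamycin included, could change as well. The count under rapamycin was 22 of 47 when 1 measured probe sufficed (11.7% of all genes) and 17 of 44 with the lower-numbered probe alone (12.1%), against 8 of 28 (6.45%). Without centring the rapamycin medians were -7.39 for essential and -1.37 for non-essential genes, and the tunicamycin median of non-essential genes was -0.53. A limit of 2 units, with each probe at 1 unit, called TFB2 enriched under cycloheximide, as the lower-numbered probe alone did, and the lower-numbered probe alone called MED1 enriched under tunicamycin. Without centring, and at 2 units, 1 non-essential gene, MED1, was depleted under rapamycin. With RGR1 in the tail and ROX3 in the head, the middle median moved from -1.11 to -2.22 under cycloheximide and from -1.54 to -3.16 under tunicamycin, and the head median from -6.17 to -3.30 under rapamycin. Brightness was not analysed here, so which near-0 ratios rest on background signal is unknown.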

Other observations

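RGR1 had probes near 0 on all 3 arrays, and LAM6 (YLR072W), its neighbour on the chromosome and a sterol transport protein, had -4.01 ± 0.69 (n = 2) under cycloheximide, -8.48 (n = 1) under rapamycin and -5.98 ± 0.09 (n = 2) under tunicamycin. The neighbour on the other side, XYL2 (YLR070C), had 1.74 (both probes alike), -0.05 ± 0.76 (n = 2) and 2.87 (n = 1). The neighbours of TAF7, ORA1 and MTF1, had values between -0.79 and 0.54, and those of TAF11, PPZ1 and TRM9, between -0.54 and 0.18. The neighbours of TFB2, RNY1 and MEI5, had 0.37 ± 0.52 (n = 2) and -0.08 ± 0.77 (n = 12) under cycloheximide, where TFB2 had 2.46. These neighbours were looked at after the values of the members were seen. The sources used here do not say which of these genes had a strain in the pool, and whether the annotation assigns the tags of these neighbouring genes correctly was not tested.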
